A study of Mus musculus with 12 samples.

Results

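The collagen genes of mouse medullary thymic epithelial cells (mTECs) were described from RNA sequencing of polyadenylated RNA. Every gene whose symbol is Col, a number, the letter a and a second number was taken, which gave 44 genes of 50600 gene identifiers. The series set out to compare WT mice with mice that lack Psmb11, which encodes the proteasome subunit beta5t of the thymic cortex, and the 12 mTEC libraries are analysed here. The cells were labelled MHC class II high (mTEC hi, 6 libraries) or MHC class II low (mTEC lo, 6 libraries) and came from the thymus of mice 6 to 8 weeks old. Both genotypes carry the strain name B6.B6CB-Psmb11tm1Smta, with Psmb11-/- for the deficient mice and Psmb11+/+ for the WT mice. In 8 libraries all labels name the same genotype, 2 Psmb11-deficient and 2 WT libraries in each cell type. In the other 4, the libraries titled WT with number 1 and KO with number 3 in each cell type, the title gives 1 genotype and the source name and strain give the other. Those 4 were used to compare the cell types and were left out of the main genotype comparisons. Whether a group's libraries came from separate mice is not stated, so p-values measure the spread between libraries, which may be technical.

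Collagens are secreted or membrane-bound proteins in which chains wind around each other into a helical trimer rich in glycine and proline. Fibrillar collagens (I, II, III, V, XI, XXIV, XXVII) give tissue its tensile strength, collagen IV forms the sheet-like network of basement membranes, and collagen VI forms beaded filaments that link cells to the surrounding matrix. Most trimers are built of fixed combinations of chains, so the balance between partner chains bears on which trimers a cell can assemble. mTECs transcribe many tissue-restricted genes at a low level, a large share of them under the control of Aire in mTEC hi, to display the encoded proteins to developing T cells.

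Each library held between 38791960 and 86793594 reads in genes. Epcam, Krt5, Krt8 and Krt14, defining epithelial genes, were present in all 12 libraries. Aire, scaled to sequencing depth (CPM), was between 1671 and 2246 in mTEC hi and between 11.0 and 26.0 CPM in mTEC lo. CPM values here are scaled by TMM and serve to compare 1 gene between libraries, while TPM values, which are divided by transcript length, serve to compare genes with each other. In the undisputed libraries of mTEC hi, Psmb11 was at 0.846 and 1.30 CPM (Psmb11-deficient) and at 10.3 and 7.52 CPM (WT). The corresponding values of mTEC lo were 1.64 and 1.17 against 12.2 and 7.48 CPM. The library titled WT with number 1 stood at 8.19 (mTEC hi) and 7.09 CPM (mTEC lo), and the library titled KO with number 3 at 1.12 and 1.26 CPM. Psmb11 thus followed the title, and went against the source name and strain, in the 4 disputed libraries. Its log2 fold change was -3.07 in mTEC hi (adjusted p = 0.00457, edgeR) and -2.81 in mTEC lo (adjusted p = 0.00814, edgeR). In mTEC hi that call was lost without Psmb11-deficient replicate 1 (adjusted p = 0.448, edgeR) and without WT replicate 2 (adjusted p = 0.194, edgeR).

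The first comparison asks how the collagen genes differ between mTEC hi and mTEC lo. Collagen VI set the cell types apart most by level. Col6a1 and Col6a2, the core chains of collagen VI, were 16.0-fold and 20.9-fold lower in mTEC hi, while Col6a3 and Col6a5, alternative partner chains, were 19.0-fold and 14.9-fold higher. The collagen IV chains of the widespread basement membrane network, Col4a1 and Col4a2, were 3.82-fold and 4.77-fold lower in mTEC hi. Col10a1, the hypertrophic cartilage collagen, was 162-fold higher in mTEC hi.

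All 44 collagen genes passed the filter on low counts. Of these, 22 were higher and 17 lower in mTEC hi, and 5 were not called at an adjusted p under 0.05 (edgeR). Over all 23923 genes tested, 82.1% were called, 44.2% higher and 38.0% lower, so the share of collagen genes called was close to that of all genes. The median log2 fold change was 0.23 over the collagen genes and 0.08 over all genes. CPM values of the 6 and 6 libraries did not overlap for 38 of the 44 collagen genes, against 68.7% of all genes. A change of at least 8-fold was called for 12 collagen genes, 10 higher and 2 lower in mTEC hi, against 19.2% of all genes. Because whole populations were sequenced, fewer cells that express a gene and less RNA per cell cannot be told apart.

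**Figure D1:**
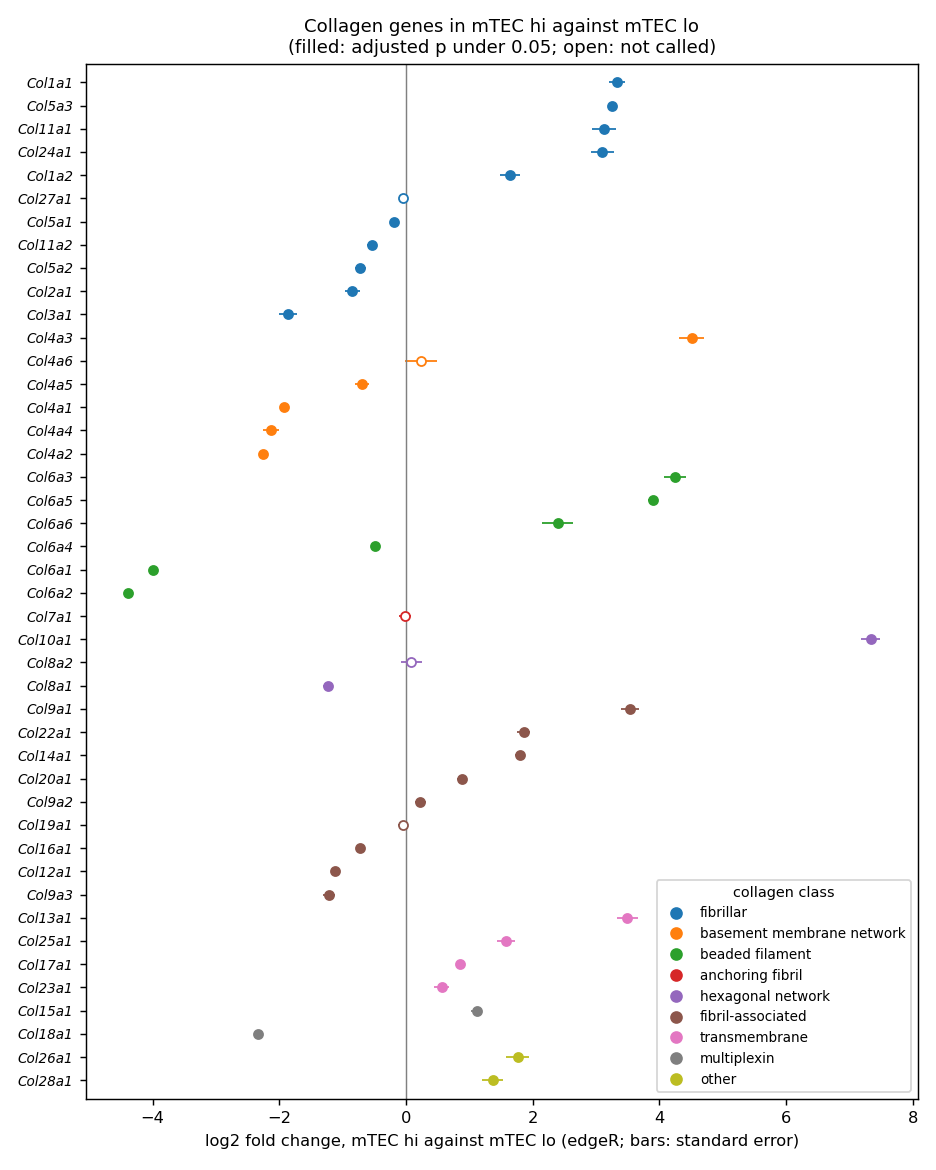
Log2 fold change of the 44 collagen genes in mTEC hi against mTEC lo (x axis), with the standard error as a bar, grouped and coloured by collagen class. Filled points are the 39 called genes and open points the 5 that were not called, and values run from -4.38 for Col6a2 to 7.34 for Col10a1.

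The summed level of all collagen genes was lower in mTEC hi. It lay between 688 and 759 TPM (median 721) in mTEC hi and between 1674 and 1929 TPM (median 1820.2) in mTEC lo, with no overlap, a ratio of the means of 2.51. In mTEC lo the order of levels was led by Col6a1 at 547 TPM, Col6a2 at 425 TPM, Col4a1 at 247 TPM and Col4a2 at 117 TPM, and no neighbours among these overlapped between libraries. Col18a1 at 83.5 TPM and Col12a1 at 74.7 TPM followed. In mTEC hi Col4a1 led at 86.7 TPM, above all other collagen genes in every library. The 6 genes after it, Col14a1 (46.1 TPM), Col16a1 (44.8 TPM), Col6a1 (42.9 TPM), Col17a1 (41.9 TPM), Col12a1 (41.6 TPM) and Col27a1 (37.3 TPM), overlapped with their neighbours in that order. The collagen gene of highest TPM was therefore Col6a1 in mTEC lo and Col4a1 in mTEC hi. Summed over their chains, collagen VI lay between 119 and 141 TPM in mTEC hi and collagen IV between 114 and 143 TPM. These sums overlapped.

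Shares of the summed collagen TPM were computed by class. Beaded filament collagen, the collagen VI chains, took 55.4% ± 1.45 (SD, n = 6) in mTEC lo and 18.3% in mTEC hi. Fibrillar collagens took 7.69% in mTEC lo and 22.1% in mTEC hi, and the fibril-associated collagens 9.30% and 24.9%. The collagen IV network took 20.6% in mTEC lo and 17.4% in mTEC hi. Transmembrane collagens took 1.1% in mTEC lo and 6.63% in mTEC hi, and the share of the multiplexins was 5.0% and 5.45%. Shares add to the whole in each library, so the large part of collagen VI in mTEC lo lowers every other share there.

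**Figure D2:**
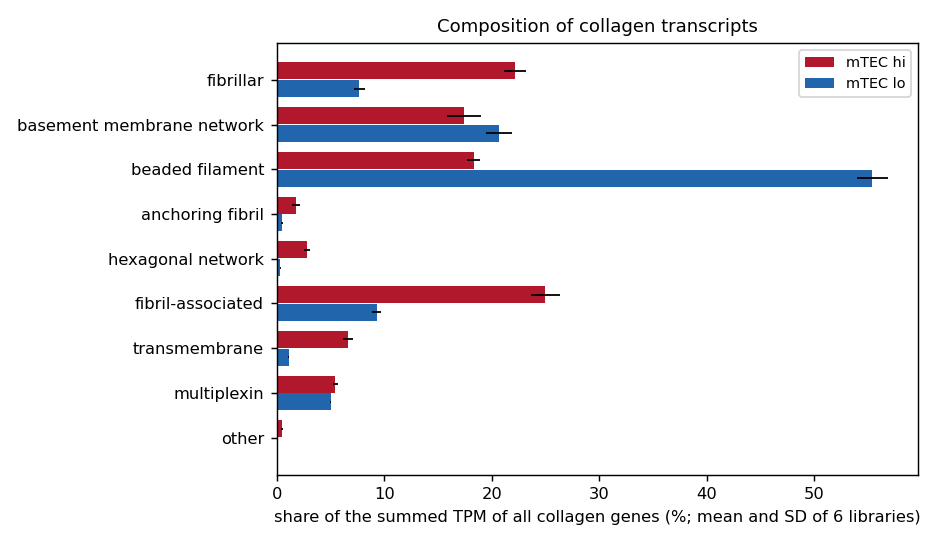
Share of the summed TPM of all collagen genes (x axis, percent) taken by each collagen class, as the mean of 6 libraries with the SD as a bar, in mTEC hi and mTEC lo. Collagen VI, the beaded filament class, takes 55.4% in mTEC lo and 18.3% in mTEC hi.

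Of the 6 collagen VI genes 3 were higher and 3 lower in mTEC hi. Col6a1 (chr10:76708792-76726168, minus strand) had its lowest, median and highest values at 105, 111 and 117 CPM in mTEC hi and at 1664, 1753 and 1975 CPM in mTEC lo. Every mTEC lo library was far above every mTEC hi library (log2 fold change -4.00 ± 0.07 SE, adjusted p = 5.21e-18, edgeR). Col6a2 (chr10:76595762-76623630, minus strand) stood at 61.2, 63.1 and 73.7 CPM in mTEC hi and at 1232, 1341 and 1539 CPM in mTEC lo (log2 fold change -4.38 ± 0.08 SE, adjusted p = 8.39e-18, edgeR). These 2 genes lie 85161 bases apart on the same strand and were both lower. Col6a3 (chr1:90765923-90843971, minus strand) encodes the large chain that joins the products of Col6a1 and Col6a2 in the classical collagen VI trimer. It stood at 33.9, 36.0 and 40.2 CPM in mTEC hi and at 1.17, 1.71 and 3.42 CPM in mTEC lo (log2 fold change 4.25 ± 0.17 SE, adjusted p = 1.95e-13, edgeR). Its direction was thus opposite to that of its partner chains.

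Col6a4, Col6a5 and Col6a6 encode further chains that can take the place of the Col6a3 product and lie next to each other on chromosome 9. Col6a5 stood at 113, 121 and 152 CPM in mTEC hi and at 6.53, 8.61 and 10.6 CPM in mTEC lo. Col6a6 was also higher in mTEC hi (log2 fold change 2.39), whereas Col6a4, between 54.0 and 60.3 CPM in mTEC hi and between 66.7 and 93.4 CPM in mTEC lo, was lower (log2 fold change -0.49). All 3 genes lie on the minus strand with 27917 and 28810 bases between them, and the neighbours Col6a5 and Col6a4 had opposite calls. The call for Col6a4 did not hold when a change of at least 1.5-fold was required. TPM ranges of Col6a4 overlapped, at 20.66 to 26.66 in mTEC hi and 25.45 to 38.3 in mTEC lo. Over 289 bases its exons overlap those of Gm47575 and Gm36993 on the opposite strand. Since the counts ignore strand, reads there cannot be assigned with certainty.

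Levels per length gave the balance of the chains in each library. The TPM ratio of Col6a1 to Col6a3, from the deposited values, lay between 3.35 and 4.61 in mTEC hi and between 616 and 3273 in mTEC lo. The ratio of Col6a1 to Col6a2 changed far less, from 1.60 to 1.89 in mTEC hi and from 1.25 to 1.37 in mTEC lo. In mTEC lo the mRNA of the classical Col6a3 partner was therefore scarce beside that of the core chains, and among the alternative chains Col6a4 was the most abundant at 30.5 TPM.

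**Figure D3:**
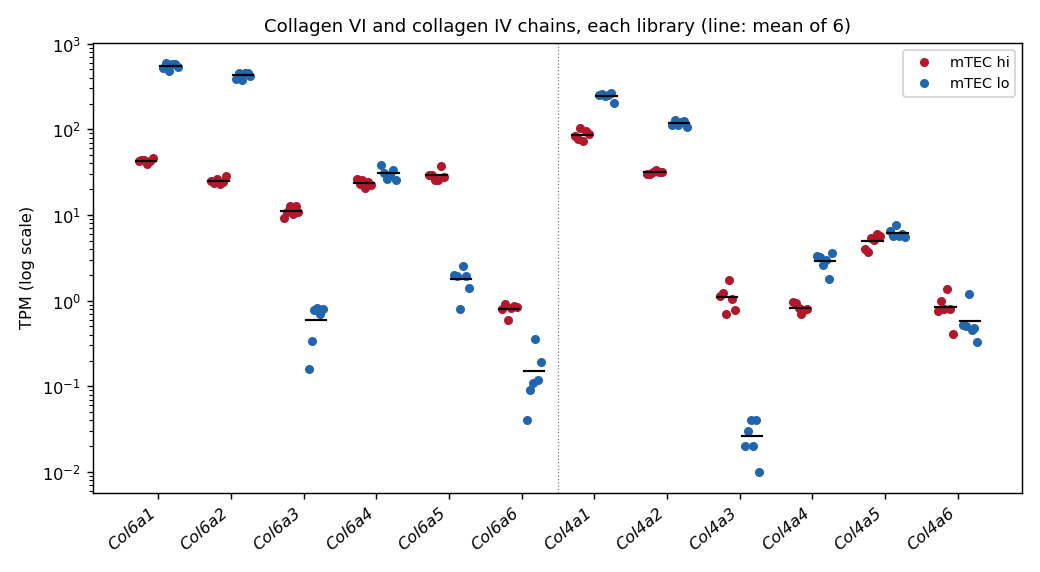
TPM (log scale) of the collagen VI and collagen IV chains in each of 6 mTEC hi and 6 mTEC lo libraries (points), with the mean as a line. Col6a1 and Col6a2 are above 377 TPM in all mTEC lo libraries, where Col6a3 is below 1 TPM, and Col4a3 is at most 0.04 TPM in mTEC lo.

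Of the 6 collagen IV genes 1 was higher, 4 were lower and 1 was not called in mTEC hi. These genes lie in head-to-head pairs. The starts of Col4a1 with Col4a2 and of Col4a3 with Col4a4 are shown here because these pairs differ in whether their members moved together. The pair of Col4a5 and Col4a6, with 1308 bases between the genes, is not shown. The sequences are RefSeq promoter windows of GRCm38.p6, from 250 bases before to 50 bases after the start. In the Col4a1 window (chr8:11312777-11313076, minus strand) capitals mark the 22 bases in which the first exons of Col4a1 and Col4a2 overlap. In the Col4a4 window (chr1:82586800-82587099, minus strand) capitals mark the 71 bases between the starts of Col4a4 and Col4a3.
Col4a1: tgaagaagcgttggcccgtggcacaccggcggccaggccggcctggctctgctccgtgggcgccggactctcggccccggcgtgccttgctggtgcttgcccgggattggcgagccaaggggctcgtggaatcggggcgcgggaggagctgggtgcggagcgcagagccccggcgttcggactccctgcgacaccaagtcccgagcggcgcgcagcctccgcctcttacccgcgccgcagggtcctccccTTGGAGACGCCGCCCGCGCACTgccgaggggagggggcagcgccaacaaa
Col4a4: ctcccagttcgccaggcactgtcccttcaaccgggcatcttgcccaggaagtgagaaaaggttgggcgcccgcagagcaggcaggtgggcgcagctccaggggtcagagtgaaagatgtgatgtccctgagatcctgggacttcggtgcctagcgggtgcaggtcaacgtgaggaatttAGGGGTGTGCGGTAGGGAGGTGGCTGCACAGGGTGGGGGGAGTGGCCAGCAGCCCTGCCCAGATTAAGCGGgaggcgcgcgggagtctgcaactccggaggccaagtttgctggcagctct
The 22 bases of the Col4a1 window include a GC box (CCGCCC on this strand). The rest of that window holds 1 CCAAT box (ATTGG on this strand), which is not marked. The whole Col4a4 window holds none of the motifs searched. Whether these letters bear on the direction of either pair was not tested.

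Col4a1 (chr8:11198423-11312826, minus strand), which with Col4a2 forms the network found in most basement membranes, stood at 247, 276 and 294 CPM in mTEC hi and at 893, 1043 and 1162 CPM in mTEC lo (log2 fold change -1.93 ± 0.06 SE, adjusted p = 1.03e-14, edgeR). Col4a2 (chr8:11312805-11449287, plus strand) stood at 113, 122 and 127 CPM in mTEC hi and at 493, 587 and 633 CPM in mTEC lo (log2 fold change -2.25 ± 0.06 SE, adjusted p = 4.70e-16, edgeR). Both members of this pair were thus lower in mTEC hi without overlap. Their TPM ratio overlapped between the cell types, from 2.20 to 3.25 in mTEC hi and from 1.95 to 2.22 in mTEC lo.

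Col4a3 and Col4a4 encode chains of the more specialised network known from the glomerulus, where their products join that of Col4a5, and they moved in opposite directions. Col4a3 (chr1:82586921-82722059, plus strand) stood at 3.84, 4.68 and 6.05 CPM in mTEC hi and at 0.138, 0.219 and 0.271 CPM in mTEC lo, 71 reads in all over the 6 libraries (log2 fold change 4.51 ± 0.20 SE, adjusted p = 1.11e-12, edgeR). Col4a4 (chr1:82448423-82586849, minus strand) stood at 4.86, 5.10 and 6.34 CPM in mTEC hi and at 15.8, 24.6 and 28.9 CPM in mTEC lo (log2 fold change -2.13 ± 0.12 SE, adjusted p = 3.71e-11, edgeR). The TPM ratio of Col4a4 to Col4a3 lay between 45.3 and 357 in mTEC lo and between 0.405 and 1.17 in mTEC hi. The values for mTEC lo are coarse, since Col4a3 was deposited there as 0.01 to 0.04 TPM; with 0.01 TPM added to each chain they are 36.4 to 179. Exons of Col4a3 overlap those of C430014B12Rik on the opposite strand over 563 bases, and since the counts ignore strand, reads there cannot be assigned to either gene with certainty. Col4a5 was lower in mTEC hi (log2 fold change -0.70), although not when a change of at least 1.5-fold was required. Col4a6, its head-to-head neighbour on chromosome X, was not called (log2 fold change 0.24 ± 0.26 SE). Without Psmb11-deficient replicate 2 of mTEC lo, which held the highest Col4a6 value of its group at 6.57 CPM, the log2 fold change was 0.55 and the gene was called (adjusted p = 0.00888, edgeR).

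Of the 11 fibrillar genes 5 were higher, 5 lower and 1 not called. Col1a1 and Col1a2 encode the chains of collagen I, the main fibrillar collagen of bone, skin and tendon. Col1a1 (chr11:94936224-94953042, plus strand) stood at 71.0, 77.8 and 91.4 CPM in mTEC hi and at 5.75, 7.16 and 10.6 CPM in mTEC lo (log2 fold change 3.34 ± 0.13 SE, adjusted p = 9.32e-14, edgeR). Col1a2 (chr6:4504814-4541544, plus strand) stood at 12.7, 16.0 and 17.4 CPM in mTEC hi and at 3.22, 4.51 and 7.10 CPM in mTEC lo (log2 fold change 1.64 ± 0.16 SE, adjusted p = 3.70e-08, edgeR). Both were higher in mTEC hi without overlap, and the TPM ratio of Col1a1 to Col1a2 lay between 3.20 and 5.34 in mTEC hi and between 1.32 and 1.8 in mTEC lo. Col3a1 (chr1:45311538-45349706, plus strand), which forms fibrils with collagen I in skin and vessel walls, went the other way. It stood at 16.3, 23.0 and 25.9 CPM in mTEC hi and at 64.8, 75.4 and 125 CPM in mTEC lo (log2 fold change -1.86 ± 0.14 SE, adjusted p = 1.80e-09, edgeR). The highest of these libraries was again Psmb11-deficient replicate 2 of mTEC lo.

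Among the chains of collagen V, which sets the diameter of collagen I fibrils, Col5a3 was higher in mTEC hi (log2 fold change 3.25), Col5a2 was lower (log2 fold change -0.72), and Col5a1 had a log2 fold change of -0.20. Col5a1 was called lower with TMM scaling, but its log2 fold change was 0.091 when only library size was scaled, a setting that moved the median of all genes from 0.08 to 0.37, and its TPM ranges overlapped. Col11a1 and Col24a1 were higher in mTEC hi (log2 fold changes 3.13 and 3.10), although Col11a1 stayed between 3.21 and 5.27 CPM there. Col11a2 (log2 fold change -0.54) and Col2a1 (log2 fold change -0.85) were lower, although the TPM ranges of both genes overlapped. The call for Col11a2 did not hold when a change of at least 1.5-fold was required. Col2a1 encodes the main fibrillar collagen of cartilage, whose fibrils also hold collagen XI. Col27a1 was not called and had values from 119 to 146 CPM in mTEC hi and from 118 to 152 CPM in mTEC lo. Its TPM did not overlap, at 34.55 to 42.08 in mTEC hi and 23.58 to 34.07 in mTEC lo. The comparison of this gene thus depends on the scale.

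Collagen X, the product of Col10a1, forms a hexagonal network in the growth plate and is a textbook product of hypertrophic chondrocytes. Its RefSeq window (GRCm38.p6, chr10:34389731-34390030, plus strand) is shown because this gene had the largest fold change of the 44, with capitals on the TATA box.
Col10a1: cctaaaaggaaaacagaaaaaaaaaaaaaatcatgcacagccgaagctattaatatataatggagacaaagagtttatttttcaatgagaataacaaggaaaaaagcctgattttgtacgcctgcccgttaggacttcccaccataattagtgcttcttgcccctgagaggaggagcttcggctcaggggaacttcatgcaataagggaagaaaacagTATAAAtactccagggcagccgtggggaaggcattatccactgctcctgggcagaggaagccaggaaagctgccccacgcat
Col10a1 (chr10:34389981-34397085, plus strand) stood at 27.3, 30.0 and 31.9 CPM in mTEC hi and at 0.0894, 0.181 and 0.327 CPM in mTEC lo, where the 6 libraries held 63 reads in all. Every mTEC hi library was above every mTEC lo library (log2 fold change 7.34 ± 0.15 SE, adjusted p = 3.60e-17, edgeR). Col8a1 and Col8a2 encode the related network of vessel walls and the cornea. Col8a1 (chr16:57624258-57754737, minus strand) was lower in mTEC hi, with 6.78, 7.88 and 9.07 CPM against 16.1, 19.0 and 21.5 CPM in mTEC lo (log2 fold change -1.23 ± 0.09 SE, adjusted p = 4.25e-10, edgeR). Col8a2, between 2.58 and 5.08 CPM in mTEC hi and between 2.46 and 3.89 CPM in mTEC lo, was not called (log2 fold change 0.08).

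Of the 9 fibril-associated genes 5 were higher, 3 lower and 1 not called. Col9a1, Col9a2 and Col9a3 encode the chains of collagen IX, which coats collagen II fibrils in cartilage. Col9a1 (chr1:24177610-24252684, plus strand) stood at 15.2, 17.1 and 19.6 CPM in mTEC hi and at 0.976, 1.46 and 2.24 CPM in mTEC lo (log2 fold change 3.53 ± 0.14 SE, adjusted p = 1.92e-13, edgeR). Col9a3 (chr2:180597790-180622189, plus strand) stood at 4.27, 4.51 and 5.15 CPM in mTEC hi and at 9.22, 10.1 and 13.0 CPM in mTEC lo (log2 fold change -1.22 ± 0.10 SE, adjusted p = 3.35e-09, edgeR). Chains of the same trimer therefore had opposite calls, and the TPM ratio of Col9a1 to Col9a3 lay between 2.14 and 3.29 in mTEC hi and between 0.0483 and 0.157 in mTEC lo. Exons of Col9a3 overlap those of Tcfl5 on the opposite strand over 234 bases. Reads there cannot be assigned to either gene with certainty, since the counts ignore strand. Its TPM ranges did not overlap (13.77 to 18.6 in mTEC hi, 8.67 to 12.44 in mTEC lo), but the CPM ranges of Col9a2 did. Col9a2 was called higher by a small margin (log2 fold change 0.23, adjusted p = 0.0193, edgeR), although not when a change of at least 1.5-fold was required. That call was lost without WT replicate 3 of mTEC hi (adjusted p = 0.0506), without WT replicate 3 of mTEC lo (adjusted p = 0.0868) and without the mTEC lo library titled WT with number 1 (adjusted p = 0.0539, all edgeR).

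Col14a1 (chr15:55307750-55520803, plus strand), whose product binds collagen I fibrils, stood at 128, 134 and 139 CPM in mTEC hi and at 29.0, 39.9 and 44.7 CPM in mTEC lo (log2 fold change 1.8 ± 0.08 SE, adjusted p = 1.20e-12, edgeR). Col16a1 (chr4:130047840-130099283, plus strand) was lower in mTEC hi, with 82.5, 88.0 and 93.5 CPM against 122, 148 and 170.0 CPM in mTEC lo (log2 fold change -0.73 ± 0.06 SE, adjusted p = 8.17e-09, edgeR). Its TPM ranges overlapped, at 39.96 to 52.29 in mTEC hi and 47.46 to 64.88 in mTEC lo. Col12a1 was likewise lower (log2 fold change -1.12), while Col22a1 and Col20a1 were higher (1.86 and 0.88 on the same scale). Col19a1 was not called (log2 fold change -0.05), 9205 bases from Col9a1.

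All 4 transmembrane collagen genes were higher in mTEC hi. Col13a1 (chr10:61838236-61979108, minus strand), found at cell adhesion sites and the neuromuscular junction, stood at 4.01, 4.44 and 4.97 CPM in mTEC hi and at 0.263, 0.409 and 0.572 CPM in mTEC lo (log2 fold change 3.49 ± 0.17 SE, adjusted p = 2.98e-12, edgeR). Col25a1 had a log2 fold change of 1.58. Col17a1, the hemidesmosome collagen of basal keratinocytes, had 0.86 and was the most abundant of the class at 41.9 TPM in mTEC hi. Col23a1 had 0.56 and was no longer called when a change of at least 1.5-fold was required. The multiplexins, basement membrane collagens that release the endostatin fragments, differed in direction. Col18a1 (chr10:77052178-77166548, minus strand) stood at 64.0, 67.0 and 68.1 CPM in mTEC hi and at 308, 341 and 370.3 CPM in mTEC lo (log2 fold change -2.34 ± 0.05 SE, adjusted p = 1.85e-16, edgeR). Col15a1 (chr4:47208161-47313167, plus strand) stood at 40.3, 41.5 and 43.0 CPM in mTEC hi and at 13.6, 19.0 and 25.1 CPM in mTEC lo (log2 fold change 1.11 ± 0.09 SE, adjusted p = 6.05e-09, edgeR). Col7a1, the anchoring fibril collagen of the skin, was not called (log2 fold change -0.01). With library size alone Col7a1 (adjusted p = 0.0112), Col19a1 (adjusted p = 0.0136) and Col27a1 (adjusted p = 0.00032, all edgeR) were called higher in mTEC hi. The remaining genes, Col26a1 (2.80, 3.61 and 4.53 CPM in mTEC hi against 0.756, 1.07 and 1.46 CPM in mTEC lo) and Col28a1, were higher in mTEC hi (log2 fold changes 1.76 and 1.37).

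Over 11 pairs of partner chains, the TPM ratio did not overlap between the cell types in 9. The same count was not made for other gene pairs, and single genes did not overlap in CPM for 68.7% of all genes. Whether the 9 pairs are particular to partner chains is therefore not known. The exceptions were Col4a5 to Col4a6 and Col4a1 to Col4a2, the latter narrowly (lowest 2.20 in mTEC hi, highest 2.22 in mTEC lo). Ratios that involve Col4a3, Col6a3, Col11a1 or Col9a1 in mTEC lo rest on few reads of that chain (71 to 672 over the 6 libraries) and spread most between libraries.

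**Figure D4:**
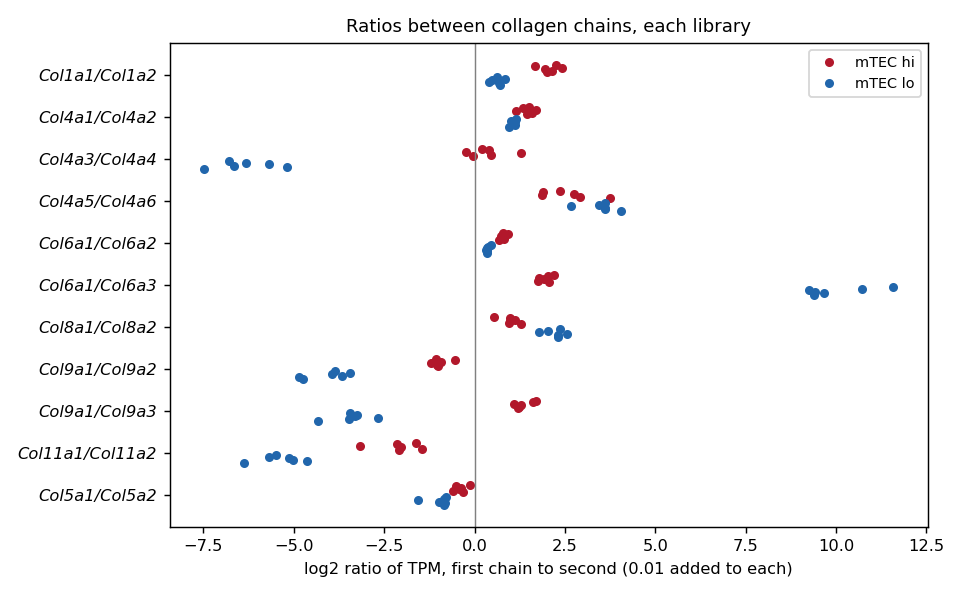
Log2 ratio of the TPM of partner chains (x axis, 0.01 TPM added to each) in every library of mTEC hi and mTEC lo (points). Col6a1 to Col6a3 and Col4a3 to Col4a4 lie farthest apart between the cell types, and Col4a1 to Col4a2 and Col4a5 to Col4a6 overlap.

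The RefSeq windows were searched on both strands for the GC box (GGGCGG), the CCAAT box (CCAAT) and the TATA box (TATAAA), which do not contain each other. Windows were found for 35 of the 44 genes, 38 windows in all, and none for Col1a1, Col2a1, Col4a3, Col5a2, Col9a3, Col12a1, Col14a1, Col22a1 and Col26a1. A GC box was found in 23 of the 38 collagen windows and in 35.6% of all 32817 windows. It was in 11 of 15 windows of genes lower in mTEC hi and in 8 of 18 windows of genes higher there. The CCAAT box was found in 13 collagen windows against 37.4% of all, and the TATA box in 5 against 13.6%. The median number of CG dinucleotides was 11.5 in the collagen windows and 7.0 in all windows. A match is a description of the letters and no evidence of binding.

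Genes that make, process, break down and sense collagen were read from 6 lists of 53 genes. Over these, 18 were higher and 32 lower in mTEC hi, where 44.2% of all genes were higher and 38.0% lower, with a median log2 fold change of -0.42 against 0.08 over all genes. Among 15 genes of hydroxylation and glycosylation, which modify proline and lysine before the helix forms, 12 were lower and 2 higher. P3h4 stood at 4.39, 4.99 and 5.53 CPM in mTEC hi and at 34.8, 36.8 and 43.7 CPM in mTEC lo (log2 fold change -2.93). P3h2, a prolyl 3-hydroxylase of collagen IV, was higher in mTEC hi (log2 fold change 1.02). Of the 9 genes of folding and export 8 were lower and none was higher. The largest change was that of Fkbp10, a collagen chaperone of the endoplasmic reticulum, at 3.79, 3.99 and 4.89 CPM in mTEC hi and 47.7, 53.6 and 60.3 CPM in mTEC lo (log2 fold change -3.70). Serpinh1, the collagen-specific chaperone HSP47, had a log2 fold change of -2.49; it is named after its value was seen.

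Later steps of the pathway were mixed. Of 8 propeptide cleavage genes 5 were higher and 3 lower, from Tll1 (log2 fold change 2.25) to Pcolce (-1.24). In crosslinking, where lysyl oxidases join the fibrils, 3 genes were higher and 2 lower. Lox, the founding member of that family, stood at 11.7, 13.1 and 15.1 CPM in mTEC hi and at 215, 239.9 and 271 CPM in mTEC lo (log2 fold change -4.20). Loxl4 of the same family stood at 24.1, 29.8 and 33.1 CPM in mTEC hi and at 1.39, 2.14 and 2.5 CPM in mTEC lo (log2 fold change 3.83). Among 7 genes of breakdown 4 were higher and 3 lower. Mmp13, a collagenase of cartilage and bone, stood at 13.6, 14.9 and 18.0 CPM in mTEC hi and had 38 reads over the 6 mTEC lo libraries (log2 fold change 7.11). Mmp2, a gelatinase, stood at 7.96, 8.75 and 10.2 CPM in mTEC hi and at 98.3, 101 and 110.3 CPM in mTEC lo (log2 fold change -3.52). Of 9 collagen receptor genes 4 were higher and 4 lower. Ddr1, the epithelial discoidin domain receptor, was lower in mTEC hi (log2 fold change -2.34), and Gp6, the platelet collagen receptor, had 384 reads in mTEC hi and 1 read in mTEC lo.

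Markers of other cell types also differed between mTEC hi and mTEC lo, and their counts are to be read against the 82.1% of all genes that were called (44.2% higher and 38.0% lower). Of 12 fibroblast and pericyte markers other than collagens 4 were higher and 7 lower in mTEC hi, none was at 0, and their summed level was 543 to 612 TPM in mTEC hi and 989 to 1165 TPM in mTEC lo. The summed level is thus lower in mTEC hi, as for Col6a1, Col6a2, Col3a1 and all collagens together, while Col1a1 and Col1a2 differ the other way. Of 8 chondrocyte markers other than collagens 6 were higher and 1 lower, with a summed level of 142 to 158 TPM in mTEC hi and 107 to 141 TPM in mTEC lo. Their summed CPM, which is not divided by transcript length, ran the other way, 216 to 243 in mTEC hi and 331 to 388 in mTEC lo. The direction of that sum thus depends on the measure, and the 2 sums weight the genes differently. Acan, Comp and Matn3 reached at most 0.506, 0.301 and 0.0688 CPM in mTEC lo, and Matn3 was at 0 in 4 of those libraries. The summed level in mTEC lo thus came almost wholly from the other chondrocyte markers. The 1 marker called lower in mTEC hi had a log2 fold change of -1.73. Of 8 endothelial markers 2 were higher and 3 lower, with 41.4 to 56.7 TPM in mTEC hi and 19.8 to 35.4 TPM in mTEC lo, whereas the summed CPM overlapped (72.0 to 100.5 and 54.7 to 85.8). Of 9 blood cell markers 7 were higher and 1 lower, with 674 to 718 TPM in mTEC hi and 49.0 to 70.9 TPM in mTEC lo. The part of these cell types in the collagen differences was not tested.

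The second comparison asks whether loss of Psmb11 changes collagen genes within each cell type. No collagen gene was called between the 2 Psmb11-deficient and 2 WT libraries of mTEC hi (edgeR), where 0.00375% of 26642 genes were called. At an unadjusted p under 0.05 there were 3 collagen genes, against 3.45% of all genes, and DESeq2 called 0. The lowest p belonged to Col27a1 (119 and 119 CPM in Psmb11-deficient libraries, 131 and 146 CPM in WT libraries, log2 fold change -0.21 ± 0.08 SE) and Col7a1 (27.8 and 27.6 against 30.5 and 37.0 CPM, log2 fold change -0.28 ± 0.11 SE). For both genes these 4 libraries did not overlap between genotypes, and the adjusted p was 1. The disputed libraries stood at 127 (titled WT) and 131 CPM (titled KO) for Col27a1 and at 24.2 (titled WT) and 30.5 CPM (titled KO) for Col7a1, so with genotype from the title the groups overlapped for both genes. A p that misses the threshold does not show that the genotypes are alike, and 2 libraries a group limit what can be called.

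In mTEC lo no collagen gene was called either (edgeR), where 0.0150% of genes were called. At an unadjusted p under 0.05 there were 10 collagen genes, against 11.3% of all genes. Col19a1, a fibril-associated collagen, stood at 10.9 and 12.4 CPM without Psmb11 and at 20.6 and 19.8 CPM in the WT libraries (log2 fold change -0.80 ± 0.13 SE, adjusted p = 0.0769, edgeR). Col2a1 stood at 45.0 and 37.9 CPM against 77.8 and 61.0 CPM (log2 fold change -0.75 ± 0.13 SE, adjusted p = 0.0928, edgeR). For both, each undisputed Psmb11-deficient library was below each undisputed WT library. The disputed libraries lay between the groups for Col19a1, at 18.2 CPM (titled WT) and 16.7 CPM (titled KO). For Col2a1 the library titled WT lay between the groups at 59.7 CPM. The library titled KO, at 62.9 CPM, lay within the range of the undisputed WT libraries. With genotype from the title the groups thus overlapped for Col2a1 but not for Col19a1. With genotype from the source name they overlapped for Col19a1 but not for Col2a1. DESeq2 called 158 of 26642 genes, of which 3 were collagen genes, Col2a1 (adjusted p = 0.000775), Col19a1 (adjusted p = 0.000444) and Col6a6. Without the filter on low counts edgeR called 660 of 40796 genes, of which 7 were collagen genes. Leaving out Psmb11-deficient replicate 1 of mTEC lo gave log2 fold changes of -0.87 for Col2a1 and -0.69 for Col19a1. Leaving out replicate 2 gave -0.64 and -0.91. Each of these fits leaves 1 Psmb11-deficient library in mTEC lo. No collagen gene was called with genotype from the title, with genotype from the source name, with RSEM counts or with mTEC lo fitted alone.

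The third comparison asks whether the genotype difference itself differs between the cell types. No collagen gene was called for this interaction (edgeR), as for all genes, and 7 had an unadjusted p under 0.05 against 4.41% of all genes. The lowest p belonged to Col2a1, which in mTEC hi stood at 33.6 and 32.3 CPM without Psmb11 and at 25.5 and 32.9 CPM in WT. Its genotype difference in mTEC hi minus that in mTEC lo was 0.93 on the log2 scale (± 0.19 SE, adjusted p = 0.821, edgeR). DESeq2 called this gene (adjusted p = 0.0482), as did edgeR without Psmb11-deficient replicate 1 of mTEC lo (log2 difference 1.05, adjusted p = 0.0373).

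**Figure D5:**
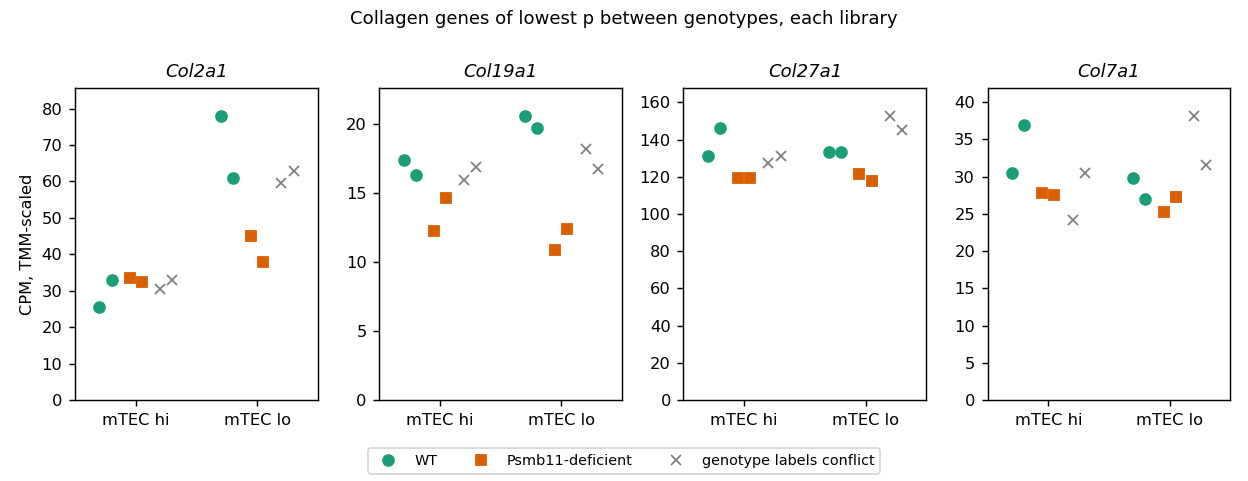
CPM scaled by TMM (y axis) of the collagen genes of lowest p between genotypes, in each library of mTEC hi and mTEC lo, with symbols for WT, Psmb11-deficient and libraries whose genotype labels conflict. In mTEC lo the Psmb11-deficient libraries lie at 45.0 and 37.9 CPM for Col2a1 and the WT libraries at 77.8 and 61.0 CPM.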

How the data were processed

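The authors deposited, for each of 12 libraries, counts of reads per gene with no normalisation, and a table of RSEM expected counts, TPM and FPKM. RSEM 1.2.28, STAR 2.5.1b and CASAVA 1.8.2 are named in the submitters' processing notes. The notes name build GRCh38, although gene identifiers are those of mouse, and which annotation was counted is not given in the sources read. Per the labels, libraries were made from polyadenylated RNA with a TruSeq kit. The columns for the 2 strands held near-equal shares (50.4% to 50.8%), so the column that ignores strand was used, and reads over exons of genes on both strands cannot be told apart, which touches 13 collagen genes. RSEM totals were 0.507 to 0.535 of the read totals.

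Symbols and coordinates were taken from GENCODE M21 (GRCm38), where 50376 of 50600 identifiers matched. Counts were filtered with filterByExpr (minimum count 10, total 15), scaled by TMM and tested across all genes with the quasi-likelihood F test of edgeR 4.0.16 (R 4.3.3), adjusted by Benjamini-Hochberg at 0.05. Cell type was tested over all 12 libraries with a genotype class covariate, and the genotypes in a model of 4 groups over 8 libraries. A standard error is the log2 fold change divided by the square root of F. Fits were also run on simulated data that gave every gene the same dispersion and set no changes in genes of low mean counts. That run does not measure error rates in these data. Alternatives were RLE size factors, library size alone, DESeq2 1.42.0, no filter, rounded expected counts, genotype by title or source name, the title number as a block, the undisputed libraries, each cell type alone, a minimum change of 1.5-fold, each library left out, and FPKM or CPM per kilobase of exon for levels. The title with the block was added after seeing the data. Whether title numbers pair the libraries was not settled. Correlations of deviations of same-titled libraries between the cell types were 0.009 to 0.117, not all above 0.1. Those of differently titled libraries were -0.096 to 0.076. Members, classes and lists were chosen with earlier results of these data known. Full values are given for the genes of highest TPM, the largest called changes of each class and list, partner chains and the lowest p between genotypes.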

Additional observations from a re-analysis of the deposited data

Results flagged for a closer look

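CPM values of the 44 collagen genes were screened for a library that stood apart from the other 5 of its cell type, and 9 of 88 groups held one by Dixon's criterion, where chance flags about 1 in 20. In mTEC lo, Psmb11-deficient replicate 2 held 3 of them, as the highest library for Col3a1 (125 CPM, next 84.0), Col4a5 (35.9 CPM, next 27.5) and Col4a6 (6.57 CPM, next 2.80). The same library had 21.5 CPM of Mrc2, an endocytic collagen receptor, against 0.677 to 3.90 CPM in the other mTEC lo libraries. In mTEC hi, WT replicate 2 was lowest for Col2a1 (25.5 CPM, next 30.6) and highest for Col9a3 (5.15 CPM, next 4.57). Psmb11-deficient replicate 1 of mTEC hi was highest for Col8a2 (5.08 CPM, next 3.22), and replicate 2 was lowest for Col6a6 (3.47 CPM, next 4.57). WT replicate 3 was highest for Col20a1 (23.3 CPM, next 20.7). The mTEC hi library titled KO with number 3 was highest for Col6a5 (152 CPM, next 125).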

How the results depend on the processing

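Between mTEC hi and mTEC lo, 33 of the 39 called collagen genes kept direction and call under all 23 alternatives, while 6 called genes and 4 uncalled genes did not. The counts ranged from 20 to 25 higher and from 13 to 17 lower. With library size alone the log2 fold changes of Col5a1 (0.091), Col7a1 (0.28), Col19a1 (0.24) and Col27a1 (0.23) turned positive, and Col7a1, Col19a1 and Col27a1 were then called. A minimum change of 1.5-fold left 12958 called genes of 19649. Leaving out each library gave 21 to 23 higher and 17 lower collagen genes, and 19337 to 20129 genes in all. The ratio of summed collagen levels was 3.32 with CPM per kilobase of exon and 2.48 to 2.55 with each library left out. In mTEC hi 1 gene was called between genotypes, 3 with DESeq2, 42 without a filter, 3 with RSEM counts, 0 with genotype from the source name, 2 with the cell type alone and 0 to 2 with a library left out. In mTEC lo 4 genes were called, 9 with library size alone, 158 with DESeq2 (3 collagen genes), 660 without a filter (7 collagen genes), 2 with genotype from the source name and 1 with the cell type alone. Leaving out a library gave 1 to 323 genes there, with 0 to 6 collagen genes. For the interaction no gene was called, against 9 with DESeq2 (1 collagen gene), 141 without a filter (1 collagen gene), 2 with RSEM counts and 0 to 49 (0 to 1 collagen genes) with a library left out. With the title number as a replicate block, 45 genes were called in mTEC lo, of which 1 was a collagen gene (Col2a1, -0.82), and 7 for the interaction, and with genotype from the title and the replicate block 13 in mTEC lo. The block changed no collagen call between mTEC hi and mTEC lo or between genotypes in mTEC hi. The cause of these changes was not tested. Genotypes rest on 2 libraries a group, and genes such as Col4a3 and Col10a1 on few reads in mTEC lo.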
